A study of Mus musculus with 8 samples.

Results

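Ion channel genes of 3 kinds, those of potassium channels, voltage-gated sodium channels and voltage-gated calcium channels, were followed across 8 libraries of mouse paw tissue. They were chosen by symbol alone: any gene whose symbol starts with Kcn and a letter, Scn and a digit, or Cacn and a letter. The rule took 135 of the 22609 genes counted. It included pore-forming and auxiliary subunits and also took Kcnq1ot1, a long non-coding RNA transcribed antisense to Kcnq1, and Kcnrg, a regulator of potassium channels. Of the 135 genes, 83 passed the filter on low counts and were tested, 44 had counts but did not pass, and 8 had no count in any library (Cacng8, Kcne2, Kcnj6, Kcnj9, Kcnk9, Kcnk15, Kcnk18 and Kcnmb3). Of the 44, 36 had at most 10 counts in every library and the other 8 at most 39.

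The libraries came from paw tissue of C57BL/6J mice, an inbred strain, 4 labelled male and 4 labelled female. All carried the same treatment label, prolactin (PRL) at 0.1 µg for 12 days, given by intraplantar injection once a day. Prolactin is a pituitary hormone best known for its role in lactation, and the study's title asks about prolonged prolactin and sex differences in persistent pain. The protocol also lists PBS and single-injection arms, which were not analysed here, so no value below is set against an untreated paw. The labels give neither ages nor whether a library is 1 animal or a pool, and p-values therefore measure the spread between these libraries.

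Voltage-gated sodium channels start action potentials, voltage-gated calcium channels turn depolarisation into calcium signals, and potassium channels return the membrane to rest or hold it there. In skeletal muscle the sodium channel Scn4a carries the action potential, and the calcium channel of the transverse tubules, built around Cacna1s, senses it and opens the calcium stores. Sensory neurons, Schwann cells, vessel walls, epidermis and sweat glands each use other subunits. Paw tissue holds all of these, but the cell bodies of the sensory neurons lie outside it, in the dorsal root ganglia.

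The 8 libraries differed widely in skeletal muscle. A muscle score, the mean log2 CPM (read counts scaled to a common library size) of 20 genes of fast muscle fibres, none of them a channel, was 7.18, 9.90, 7.77 and 4.80 in male replicates 1 to 4. It was 9.41, 6.53, 0.50 and 7.49 in female replicates 1 to 4. Male replicate 2 and female replicate 1 were richest in muscle, female replicate 3 held almost none, and the sexes overlapped throughout. Scores of other cell types varied less: 10.13 to 10.68 for keratinocytes, 4.10 to 5.06 for Schwann cells and myelin, 4.52 to 6.04 for leukocytes, and 2.74 to 5.14 for hair follicle, which was lowest in male replicate 2 and highest in female replicate 3. Of 15 neuron and axon markers, 9 had at most 10 counts in every library, while Tubb3 had at least 397 and Stmn2 at least 213. Counts in genes summed to between 16753528 and 24993744, and Xist and Y-linked counts matched the label in 8 of 8 libraries. The channel genes together took 0.0755, 0.179, 0.0901 and 0.0632% of the counts in males and 0.159, 0.0637, 0.0523 and 0.0902% in females, with the highest shares in male replicate 2 and female replicate 1.

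Channel genes that followed muscle were found by the slope of a gene's log2 expression on the muscle score, with sex in the fit. A slope of 1 means that the gene changed as steeply as the muscle genes did, and a slope of 0 that it did not follow them. In this edgeR test, 18 of the 83 channel genes tested (21.7%) rose with muscle at an adjusted p under 0.05, against 4.73% of all genes tested. None fell, against 0.798% of all genes. At an unadjusted p under 0.05 in either direction there were 36 channel genes (43.4%) and 26.4% of all genes. The median slope over the 83 genes was 0.07, and over all 14790 genes tested it was 0.00. The 18 genes spread from steep to shallow: 7 had slopes of 0.85 or more, 4 lay from 0.5 to 0.85, and 7 lay under 0.5. Male replicate 2 was the highest library for 15 of them and female replicate 3 the lowest for 17. This follows in part from how the 18 were picked, since these libraries had the highest and lowest muscle scores. In whole tissue, fewer cells of a type and less RNA per cell cannot be told apart. The endothelial and Schwann scores of male replicate 2 and female replicate 1 (5.77 and 5.55, 4.75 and 4.82) were also above those of female replicate 3 (5.08 and 4.26), and their part in these slopes was not tested. So was the smooth muscle score on 10 markers (6.68 and 6.52 against 5.49), but that list holds Des and Synpo2, which skeletal muscle also expresses: Des had 15234 and 9557 counts against 152. On the 8 other markers, a set chosen after these counts were seen, the scores were 6.23 and 6.15 against 6.01.

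**Figure D1:**
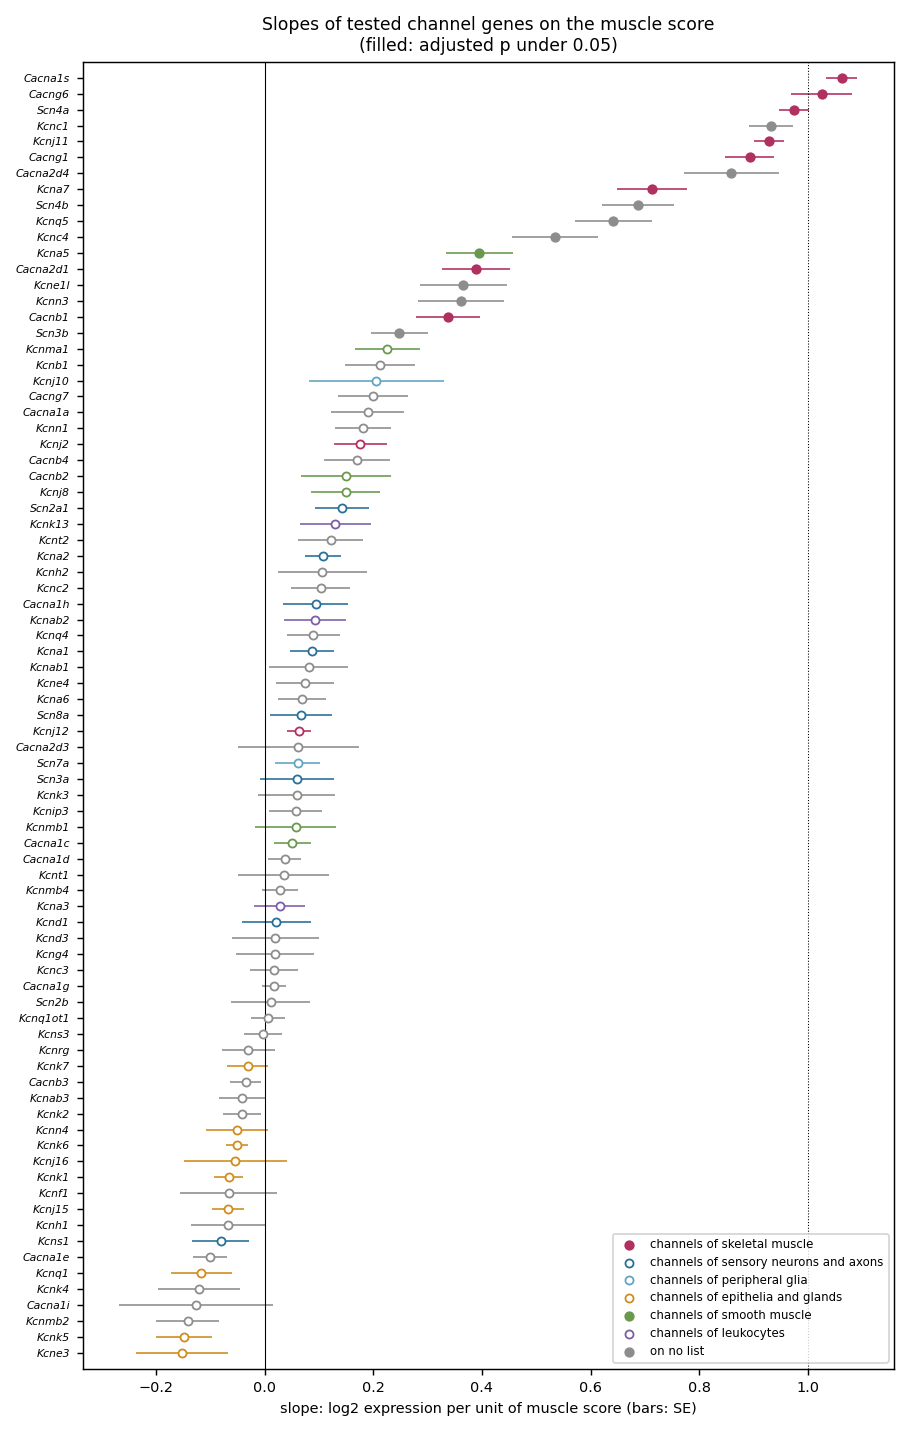
Slope of log2 expression on the muscle score (x axis, dotted line at 1) for tested channel genes (y axis), with bars for the standard error, coloured by tissue list; filled points passed an adjusted p under 0.05. All filled points lie to the right of 0, and the 9 genes of the list of epithelia and glands all lie to its left. Of all 14790 genes tested, 7000 had a slope below 0.

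The promoters of the 4 steepest risers are shown because these genes moved together across the libraries, and because the window before a start site is where muscle regulators are known to bind, MyoD and its relatives at E-boxes, TEAD factors at CATTCC and MEF2 factors at their own motif. Each is the 250 bases before the start site, 5′ to 3′ on the gene's strand, from RefSeq on GRCm38.p6. Capitals mark E-boxes (CANNTG) and CATTCC, searched on both strands; no marked motifs overlap.
Cacna1s (chr1:136052561-136052810, plus strand): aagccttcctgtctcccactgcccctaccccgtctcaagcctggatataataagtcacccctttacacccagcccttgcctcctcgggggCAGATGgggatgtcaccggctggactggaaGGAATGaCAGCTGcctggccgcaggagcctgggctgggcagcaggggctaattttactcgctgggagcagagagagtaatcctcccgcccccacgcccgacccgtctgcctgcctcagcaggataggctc
Cacng6 (chr7:3424412-3424661, plus strand): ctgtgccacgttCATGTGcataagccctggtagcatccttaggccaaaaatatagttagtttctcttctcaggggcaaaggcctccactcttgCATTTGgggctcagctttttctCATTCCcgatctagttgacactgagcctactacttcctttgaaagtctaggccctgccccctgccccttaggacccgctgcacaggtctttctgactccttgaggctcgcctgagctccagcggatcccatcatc
Kcnc1 (chr7:46396218-46396467, plus strand): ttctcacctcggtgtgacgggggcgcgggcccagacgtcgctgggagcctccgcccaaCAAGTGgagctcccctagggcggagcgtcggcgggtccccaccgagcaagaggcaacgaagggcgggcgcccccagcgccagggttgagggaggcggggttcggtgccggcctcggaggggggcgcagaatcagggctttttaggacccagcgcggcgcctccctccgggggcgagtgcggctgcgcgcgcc
Scn4a (chr11:106349391-106349640, minus strand): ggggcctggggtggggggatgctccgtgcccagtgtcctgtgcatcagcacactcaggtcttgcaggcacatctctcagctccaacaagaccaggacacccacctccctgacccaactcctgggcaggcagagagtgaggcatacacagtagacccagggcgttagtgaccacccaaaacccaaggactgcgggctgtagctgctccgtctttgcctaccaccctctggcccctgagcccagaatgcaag
The windows of Cacna1s and Cacng6 each held 2 E-boxes and 1 CATTCC match, that of Kcnc1 held 1 E-box, and that of Scn4a held neither. Of the 18 risers, 13 had an entry, with 15 promoters among them. E-boxes stood in 8 of the 15 (53.3%) and in 66.2% of all 32851 promoters of that length in the table. CATTCC stood in 4 of the 15 (26.7%) and in 12.6% of all, and the MEF2 motif in 0 of the 15 and in 2.92% of all. A match describes the letters of the window and is not a measured site.

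The calcium channel of the transverse tubules gave the steepest slopes. Cacna1s, its pore and voltage sensor, was measured at 48.5, 298, 61.6 and 7.93 CPM in male replicates 1 to 4 and at 239.5, 30.7, 0.177 and 58.5 CPM in female replicates 1 to 4. Male replicate 2 and female replicate 1 stood far above the rest, and female replicate 3, with 4 counts, far below, so both sexes spanned the range. The ratio of male replicate 2 to female replicate 3 was 1688, with a 95% exact counting interval of 659 to 6196. The slope was 1.06 (SE 0.03, adjusted p = 1.93e-07).

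Both muscle gamma subunits moved with the pore. Cacng1, the gamma subunit of that channel, stood at 14.0, 79.2, 18.0 and 4.02 CPM in males and at 45.3, 9.24, 0.0441 and 16 CPM in females, with a slope of 0.89 (SE 0.05, adjusted p = 6.28e-06). Cacng6, a second gamma subunit of muscle, stood at 2.59, 16.5, 2.78 and 0.392 CPM in males and at 10.3, 1.62, 0 and 3.16 CPM in females. Female replicate 3 had no Cacng6 count, which makes male replicate 2 at least 125-fold higher against a floor of 3 counts in that library. The Cacng6 slope was 1.02 (SE 0.06, adjusted p = 9.7e-06). The libraries of both genes kept the order of the muscle-rich pair above and the muscle-poor library below.

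The alpha2delta and beta subunits of the same complex rose less steeply. Cacna2d1, which brings the pore to the membrane and is the target of gabapentin, was at 44.8, 158.7, 50.0 and 17.8 CPM in males and at 133, 31.6, 15.1 and 53.0 CPM in females. Cacnb1, the beta subunit that couples the pore to calcium release, was at 17.7, 56.7, 22.3 and 8.52 CPM in males and at 48.7, 13.9, 7.06 and 16.7 CPM in females. Both kept a clear level in female replicate 3, where Cacna1s was nearly absent. Their slopes were 0.39 (SE 0.06, adjusted p = 0.0121) and 0.34 (SE 0.06, adjusted p = 0.018), and without female replicate 3 they were 0.64 (adjusted p = 2.12e-05) and 0.57 (adjusted p = 0.000118). Neither call held without female replicate 1 (adjusted p = 0.0977 and 0.143), and that of Cacnb1 also failed without male replicate 4 (adjusted p = 0.0586).

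Other calcium channel pores did not pass in edgeR with all 8 libraries. Cacna1c, the L-type pore of heart and smooth muscle, ranged from 7.84 to 12.8 CPM, Cacna1d, an L-type pore of neurons and endocrine cells, from 6.91 to 11.3 CPM, and the T-type Cacna1g from 15.4 to 21.8 CPM. These 3 levels hardly moved across libraries in which Cacna1s spanned a ratio of 1688, and their slopes were 0.05, 0.04 and 0.02. Other pores moved more. Cacna1a ranged from 1.89 to 7.01 CPM with a slope of 0.19 (adjusted p = 0.126), and Cacna1e had a slope of -0.10 (adjusted p = 0.101). Cacnb3, a beta subunit of many non-muscle cells, ranged from 17.9 to 28.4 CPM with a slope of -0.04. Cacnb4, another beta subunit, ranged from 1.57 to 5.94 CPM with a slope of 0.17 (adjusted p = 0.131). Cacna2d4, an alpha2delta subunit known from photoreceptors, rose with a slope of 0.86 (SE 0.09, adjusted p = 0.000668) at low levels, 0 to 3.05 CPM, and was chosen for mention after its values were seen. Its call was lost when female replicate 3 and male replicate 2 were both left out (slope 0.81, adjusted p = 0.133).

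**Figure D2:**
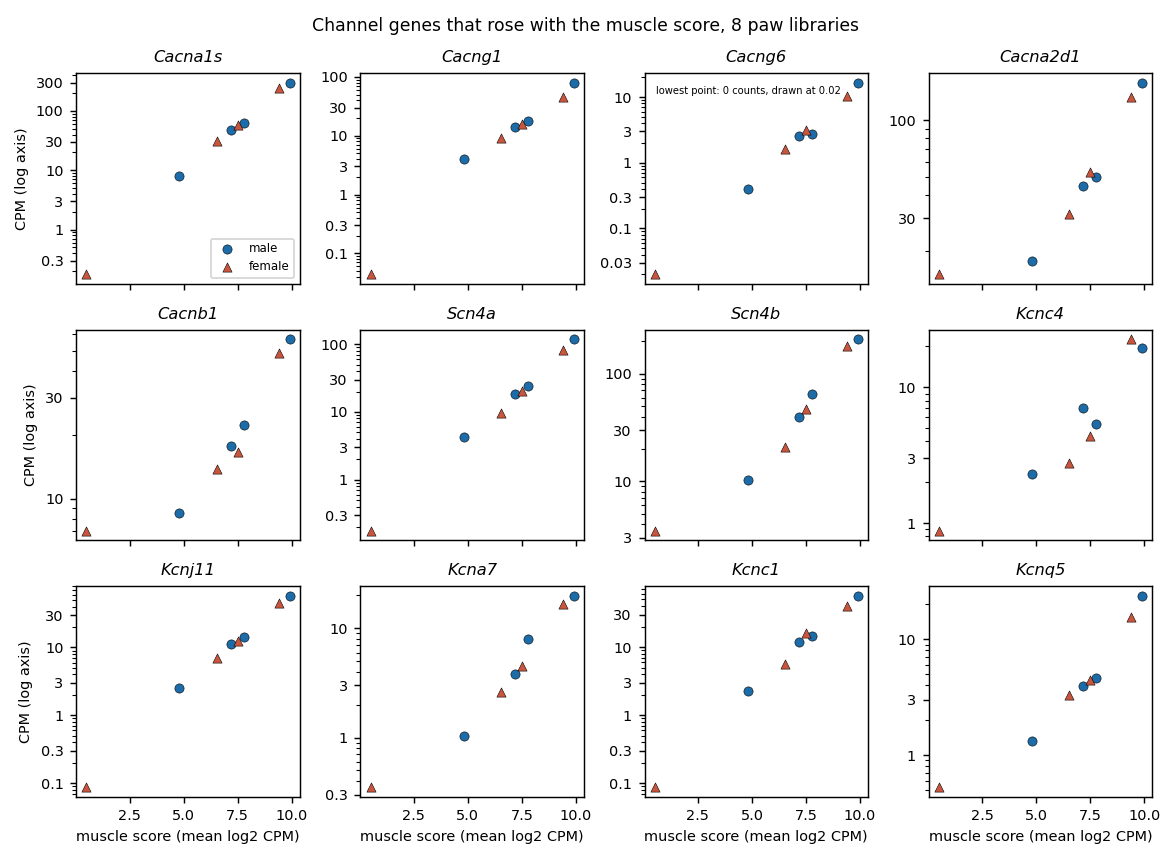
CPM on a log axis (y) against the muscle score (x) for 12 channel genes that rose with muscle; each point is 1 of the 8 libraries, circles male and triangles female. Cacna1s and Scn4a run in nearly straight lines from 0.177 CPM in female replicate 3 to 298 and 119 CPM in male replicate 2, while Cacna2d1 and Cacnb1 flatten towards female replicate 3.

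Among sodium channels, the muscle pore rose most steeply. Scn4a, the pore of the muscle action potential, was at 18.3, 119, 24.2 and 4.31 CPM in males and at 82.2, 9.75, 0.177 and 20.6 CPM in females. Its libraries took the order of Cacna1s, and again 4 counts were left in female replicate 3, a ratio to male replicate 2 of 672 (95% exact counting interval 262 to 2469). The Scn4a slope was 0.97 (SE 0.03, adjusted p = 2.02e-07).

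Scn4b, a beta subunit that shapes resurgent current in neurons, was at 39.6, 209.6, 64.2 and 10.2 CPM in males and at 180.0, 21.0, 3.49 and 46.7 CPM in females. Female replicate 3 was the lowest library and male replicate 2 the highest. The slope was 0.69 (SE 0.07, adjusted p = 0.000624), and without female replicate 3 it was 0.92 (adjusted p = 7.39e-06). Scn3b, a beta subunit of neurons and heart, was lower, 1.55 to 6.89 CPM, and rose with a slope of 0.25 (SE 0.05, adjusted p = 0.0342), which became 0.41 (adjusted p = 0.0112) without female replicate 3. Its call was lost without any 1 of male replicates 1 to 4 or female replicate 1, with adjusted p from 0.0675 to 0.228. Scn2b, a beta subunit best known from brain, ranged from 0.397 to 1.62 CPM with a slope of 0.01.

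Per length of merged exons, Kcnk6, a two-pore-domain potassium channel of epithelia, had a mean of 19.6 CPM per kilobase, Cacng1 18.6, Cacna1s 14.5, Scn4b 14.4 and Kcnk7 13.9. The muscle genes owed their mean to a few libraries: Cacna1s ran from 0.0275 to 46.5 CPM per kilobase, and Kcnk6 from 14.7 to 23.5.

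By class of potassium channel, 5 of 22 tested voltage-gated pores rose, 1 of 7 inward rectifiers and 0 of 8 two-pore-domain subunits. So did 1 of 6 calcium- or sodium-activated pores and 1 of 10 auxiliary subunits, against 4.73% of all genes tested. Most of these classes are small, and a difference between them was not tested. Kcnj11, the inward rectifier pore of the ATP-sensitive channel of muscle and pancreatic beta cells, was at 11.1, 58.2, 14.4 and 2.50 CPM in males and at 45.2, 7.02, 0.0883 and 12.4 CPM in females. It followed the muscle score as closely as the sodium channel did, with a slope of 0.93 (SE 0.03, adjusted p = 2.71e-07).

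Kcnc1, a fast voltage-gated channel best known from fast-spiking neurons, was at 12.0, 57.1, 14.7 and 2.25 CPM in males and at 40.1, 5.73, 0.0883 and 15.9 CPM in females. Its slope of 0.93 (SE 0.04, adjusted p = 2.39e-06) lay beside that of Kcnj11, and 2 counts were left in female replicate 3. Kcna7, a voltage-gated channel of skeletal muscle and heart, was at 3.78, 20, 7.91 and 1.03 CPM in males and at 16.7, 2.59, 0.353 and 4.55 CPM in females. The same muscle-rich pair was highest, and the slope was 0.71 (SE 0.06, adjusted p = 0.000282).

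Kcnq5, an M-current channel known from brain and muscle, ranged from 0.530 CPM in female replicate 3 to 23.9 CPM in male replicate 2 and rose with a slope of 0.64 (SE 0.07, adjusted p = 0.00112). Kcnc4, a relative of Kcnc1, ranged from 0.883 CPM in female replicate 3 to 22.6 CPM in female replicate 1, with a slope of 0.53 (SE 0.08, adjusted p = 0.00782). Kcna5, a channel of heart and vessel wall, was low at 0.177 to 2.67 CPM and rose with a slope of 0.40 (SE 0.06, adjusted p = 0.00938). The calls of Kcnc4 and Kcna5 were lost when female replicate 3 and male replicate 2 were both left out, with slopes of 0.80 and 0.42 (adjusted p = 0.0773 and 0.429), and that of Kcna5 also without female replicate 1 (adjusted p = 0.0773). Kcnn3, a small-conductance calcium-activated channel known from denervated muscle, ranged from 3.18 to 37.0 CPM, with a slope of 0.36 (adjusted p = 0.0413) that was 0.67 (adjusted p = 0.000344) without female replicate 3. Kcne1l, an auxiliary subunit, ranged from 0.392 to 3.89 CPM, with a slope of 0.37 (adjusted p = 0.0394). The call of Kcnn3 was lost without any 1 of male replicates 1 to 4 or female replicates 1 and 4 (adjusted p from 0.0679 to 0.241), and that of Kcne1l without any 1 of male replicates 1 to 4 or female replicates 1 and 3 (adjusted p from 0.0599 to 0.238). Both genes and Scn3b were chosen for mention after their values were seen. Kcnq1ot1 and Kcnrg did not pass, at 9.80 to 16.3 and 1.47 to 3.46 CPM.

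The list of 10 channels of skeletal muscle was drawn up with earlier results of these data known, so its counts are no separate support. On that list 8 rose, against 4.73% of all genes tested, and the median slope was 0.80. The remaining members were the strong inward rectifiers that hold the resting potential of the fibre. Kcnj2 was at 16.8, 42.9, 20.7 and 12.9 CPM in males and at 38.1, 16.8, 14.6 and 19.6 CPM in females, and its slope of 0.18 (SE 0.05) did not pass (adjusted p = 0.0781). The muscle-rich pair was still highest, and without female replicate 3 the slope was 0.36 and passed (adjusted p = 0.00195), as it did with DESeq2 (adjusted p = 0.0122). Kcnj12 varied least of the list, 17.9 to 39.0 CPM, with a slope of 0.06 (adjusted p = 0.127). All 10 genes of the list were highest in male replicate 2. Of the 18 risers, 9 were on no tissue list, Kcnc1, Scn4b and Kcnq5 among them.

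Most of the genes listed as partners of these channels in muscle moved with them. This list, too, was drawn up with earlier results of these data known. Of 20 tested partners in excitation-contraction coupling and at the neuromuscular junction, 15 rose, with a median slope of 0.73, against 4.73% of all genes tested. Trdn, which anchors the calcium store's release complex, rose with a slope of 0.999 (adjusted p = 3.97e-07), Sypl2 of the triad membranes with 0.99 (adjusted p = 5.23e-07), Chrna1 of the acetylcholine receptor with 0.83 (adjusted p = 1.84e-06), and Atp2a1, the calcium pump of fast fibres, with 1.14 (adjusted p = 3.06e-06). Of 21 tested genes of other cation channels, pumps and channel-binding proteins, a list made in the same way, 6 rose and 15 did not pass. Ank1 rose with a slope of 0.79 (adjusted p = 1.47e-05), Fgf13, which binds sodium channels, with 0.35 (adjusted p = 0.00428), and Cntnap2, which clusters potassium channels on axons, with 0.59 (adjusted p = 0.011).

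**Figure D3:**
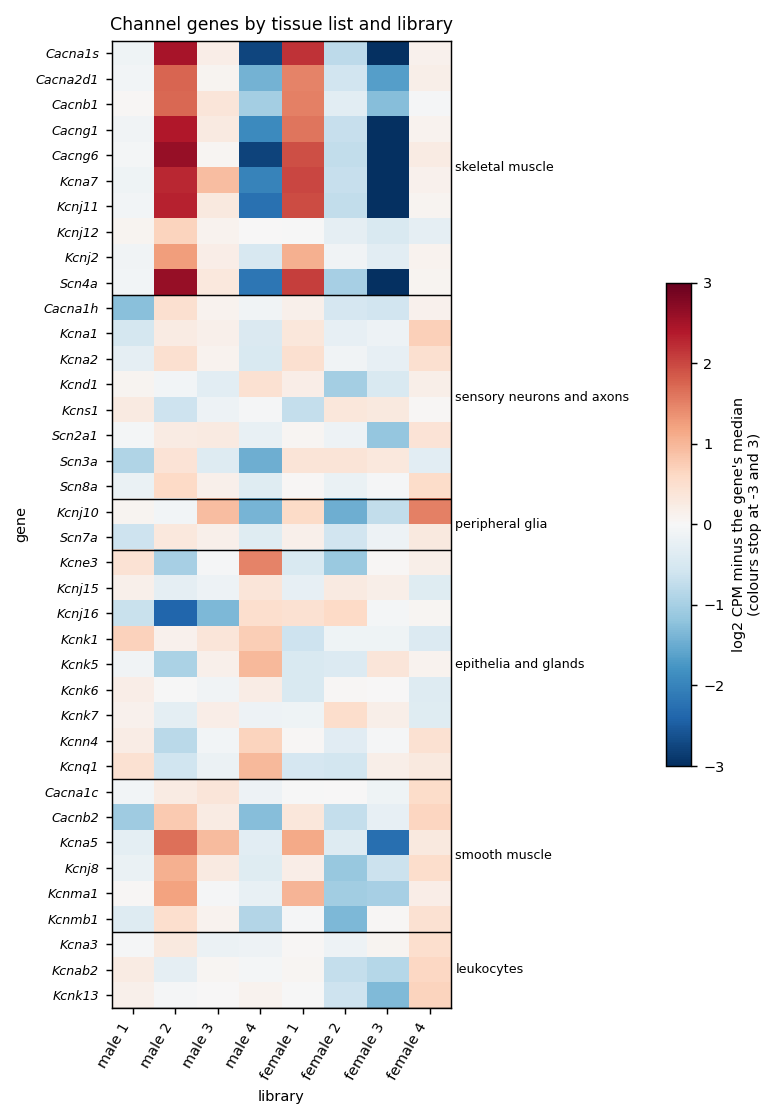
Log2 CPM minus the gene's median over the 8 libraries (colour, stopping at -3 and 3) for the tested channel genes of the 6 tissue lists (rows) in each library (columns). The 10 muscle genes are highest in male replicate 2, 7 of 9 genes of epithelia and glands in male replicate 4, and 3 of 3 leukocyte genes in female replicate 4.

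Channels of sensory neurons were mostly too low to test. Of 18 genes on that list, 10 did not pass the filter. Scn9a, Scn10a and Scn11a, the sodium channels of nociceptors, had at most 2, 1 and 3 counts in any library, and Scn1a, a sodium channel of large sensory neurons, at most 3. Kcnk18, a two-pore-domain channel of sensory neurons, had 0 counts in all 8 libraries, which allows up to 0.116 to 0.177 CPM depending on the library. Kcna4, Kcnb2, Kcnq3 and Cacna1b had at most 5, 1, 4 and 5 counts. Low counts were thus shared by the nociceptor channels and by 9 of the 15 neuron markers, but not by all of these markers. Tubb3 had 397 to 1004 counts, Stmn2 213 to 543, Uchl1 39 to 319, Gap43 24 to 88, Prph 8 to 44 and Nefm 0 to 12.

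Kcna1 and Kcna2, potassium channels known from axons, were the exception, and which cells of the paw their RNA came from was not tested. Kcna1, which lies beside the nodes of myelinated axons, was at 22.7, 39.0, 36.8 and 24.2 CPM in males and at 41.4, 27.9, 29.5 and 53.8 CPM in females. Kcna2, its usual partner, was at 5.47, 9.25, 7.15 and 4.85 CPM in males and at 9.31, 6.19, 5.65 and 9.33 CPM in females. Male replicates 2 and 3 and female replicates 1 and 4 were the 4 highest libraries for both, and these were also the 4 libraries with the highest Schwann scores, 4.75, 4.85, 4.82 and 5.06 against 4.10 to 4.26 in the others. The Schwann scores thus form separate clusters, and a slope on them compares those clusters more than it follows a gradient. The same 4 libraries had the highest muscle scores (7.49 to 9.90 against 0.50 to 7.18) and endothelial scores (5.41 to 5.84 against 4.96 to 5.22). They also had the lowest keratinocyte scores, 10.13 to 10.49 against 10.59 to 10.68. By this order of libraries alone, Schwann content cannot be told apart from these other contents. The other tested members of the list were low: Scn2a1 0.486 to 1.43 CPM, Scn3a 0.539 to 1.98, Scn8a 0.490 to 0.963, Kcnd1 0.508 to 1.42, Kcns1 0.707 to 1.48 and Cacna1h 1.14 to 3.80. No gene of the list passed the muscle test in edgeR with all 8 libraries, and the median slope over the 8 tested was 0.08. Kcna2 passed with DESeq2 (slope 0.10, adjusted p = 0.0496) and without female replicate 2 (slope 0.11, adjusted p = 0.0428).

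With sex and muscle in the fit, no channel gene and none of the 14790 genes (0%) had a slope on the Schwann score at an adjusted p under 0.05 in edgeR; at an unadjusted p under 0.05 there were 17 of 83 channel genes (20.5%) and 12.5% of all genes. The channel genes of smallest p were Kcna1, Scn7a and Kcnk3. Kcna1 had a slope of 1.01 (SE 0.14, adjusted p = 0.249). Scn7a, an atypical sodium channel of non-myelinating Schwann cells, was at 22.3, 42.9, 38.5 and 27 CPM in males and at 38.5, 23.3, 30.9 and 42.2 CPM in females, with a slope of 1.06 (SE 0.19, adjusted p = 0.27). Its 4 highest libraries were those of Kcna1. Kcnk3, an acid-sensitive two-pore-domain channel, was lower, 0.896 to 2.82 CPM, with a slope of 1.73 (SE 0.38, adjusted p = 0.292). Without the muscle score in the fit, Kcna1 (adjusted p = 0.0265) and Scn7a (adjusted p = 0.0383) passed with like slopes, 1.01 and 0.92, together with 4 further rising and 2 falling channel genes. That fit called 7.23% of the channel genes rising and 2.41% falling, against 2.8% and 1.33% of all genes. The second gene of the glial list, Kcnj10, the potassium-buffering inward rectifier of glia, ranged from 0.185 to 1.47 CPM, highest in female replicate 4.

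**Figure D4:**
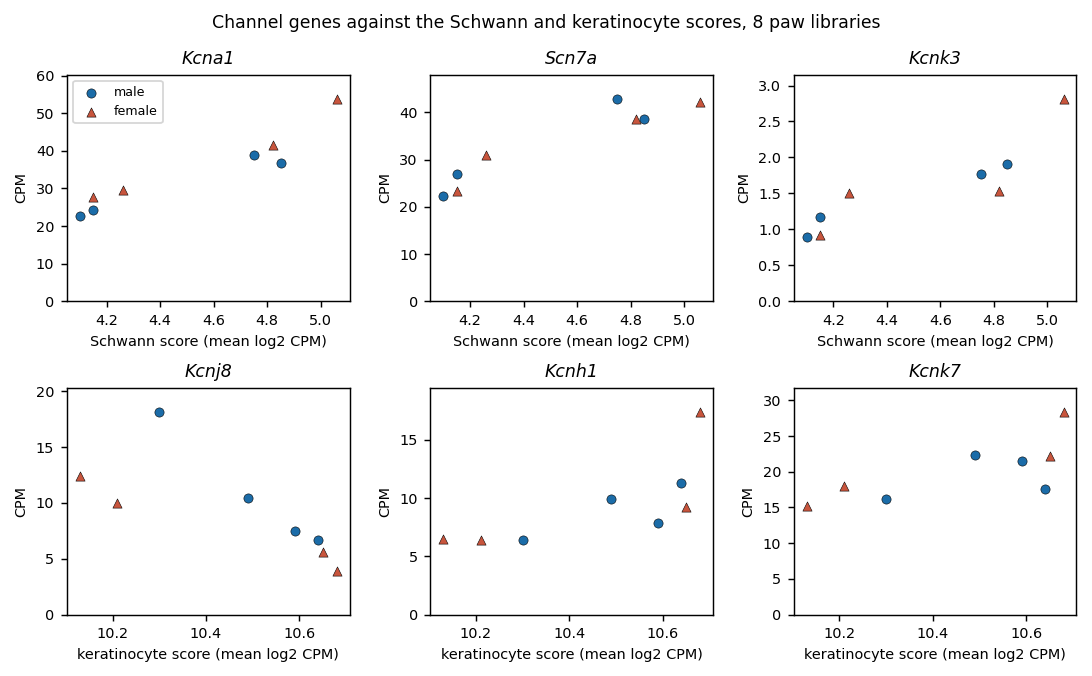
CPM (y) against the Schwann score for Kcna1, Scn7a and Kcnk3 and against the keratinocyte score for Kcnj8, Kcnh1 and Kcnk7 (x, mean log2 CPM); each point is 1 of 8 libraries, circles male and triangles female. The Schwann scores leave a gap between 4.26 and 4.75, and Kcnh1 has 1 high library, female replicate 2 at 17.4 CPM.

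Channels of epithelia and glands took another order of libraries. All 9 tested genes of that list had a slope on muscle below 0, from -0.15 to -0.03, as did 7000 of all 14790 genes tested. None of the 9 passed in edgeR with all 8 libraries. Kcnk5 passed with DESeq2 (adjusted p = 0.0264) and Kcnk6 without female replicate 2 (adjusted p = 0.0383). Kcnk6 ranged from 60.2 to 95.9 CPM, Kcnk7 from 15.2 to 28.4, Kcnj15, an inward rectifier, from 10.3 to 17.0, and Kcnj16, another, from 0.107 to 0.831. Male replicate 4 was the highest library for 7 of the 9. There Kcnk5, a two-pore-domain channel of secretory and absorptive epithelia, reached 50.9 CPM against 13.3 to 33.4 elsewhere, and Kcne3, an auxiliary subunit of epithelial potassium channels, 18.1 CPM against 2.96 to 8.66. Kcnq1, the pore with which Kcne3 assembles, reached 11 CPM there against 3.69 to 7.66, and Kcnn4, a calcium-activated channel of glands and red cells, 24.6 CPM against 8.88 to 21.3. Male replicate 4 was 1 library, so this pattern has no replicate. Kcne1, another partner of Kcnq1, was not tested, with at most 7 counts.

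On the keratinocyte score, with sex and muscle in the fit, 0 of 83 channel genes rose and 1 fell, against 1.08% and 1.54% of all genes tested; at an unadjusted p under 0.05 there were 20 of 83 (24.1%) against 20.9%. The gene that fell was Kcnj8, the pore of the ATP-sensitive channel of pericytes and smooth muscle, with a slope of -3.40 (SE 0.59, adjusted p = 0.0415). It was at 7.51, 18.1, 10.5 and 6.71 CPM in males and at 9.96, 3.93, 5.56 and 12.4 CPM in females. The call was lost when any 1 of 6 libraries was left out, male replicates 1, 3 and 4 and female replicates 1, 2 and 4, with adjusted p from 0.0606 to 1, and the slopes stayed between -3.95 and -2.99. The smooth muscle score, on 10 markers, was 5.69, 6.68, 6.14 and 5.55 in males and 6.52, 5.28, 5.49 and 6.42 in females; Kcnj8 and this score shared their highest library, male replicate 2, and their lowest, female replicate 2. Without Des and Synpo2 the score was highest in female replicate 4 (6.38) and still lowest in female replicate 2, and its part in the slope was not tested.

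The next genes by p on the keratinocyte score did not pass. Kcnh1, an ether-a-go-go channel, had a slope of 2.83 (SE 0.62, adjusted p = 0.0565) that fell to 0.46 without female replicate 2. Its CPM was 7.86, 6.42, 9.87 and 11.3 in males and 6.36, 17.4, 9.23 and 6.44 in females. Kcnk7, a two-pore-domain subunit not known to carry current alone, had a slope of 1.75 (SE 0.39, adjusted p = 0.0589). Leaving out male replicate 2 or female replicate 3 brought Kcnh1 (adjusted p = 0.0415 and 0.0347) and Kcnk7 (adjusted p = 0.0455 and 0.0199) under the threshold.

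Of the 6 smooth muscle channels, Kcna5 passed the muscle test in edgeR with all 8 libraries and the others did not. Kcnma1, the large-conductance calcium-activated pore, ranged from 1.85 to 8.77 CPM, with a slope of 0.23 (adjusted p = 0.068) that passed with DESeq2 (adjusted p = 0.0124), with no sex term (adjusted p = 0.0427) and without female replicate 2 (adjusted p = 0.0129). Kcnj8 passed without female replicate 2 (adjusted p = 0.0492). Kcnmb1, the smooth muscle beta subunit of the Kcnma1 channel, ranged from 0.647 to 2.30 CPM. Cacnb2, a beta subunit of heart and smooth muscle, ranged from 0.343 to 1.44 CPM. Male replicate 2 was highest for 5 of the 6, and female replicate 4 for Cacna1c. Channels of leukocytes were highest in female replicate 4 in 3 of 3 cases: Kcna3, the voltage-gated channel of T cells, ranged from 0.818 to 1.31 CPM, Kcnk13, a two-pore-domain channel of microglia and macrophages, from 1.59 to 6.32, and Kcnab2, a beta subunit, from 6.58 to 18.3. Female replicate 4 also had the highest leukocyte score, 6.04 against 4.52 to 5.47, and the part of that difference in these levels was not tested.

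Between the sexes, edgeR called no channel gene, 0 of 83 higher and 0 of 83 lower in females, against 0.0406% and 0.0541% of all genes tested. At an unadjusted p under 0.05 there were 6 channel genes (7.23%) and 6.53% of all genes. limma-voom also called 0 in either direction, against 0.0473% and 0.0609% of all genes. DESeq2 called 0 higher and 1 lower, Kcnk1, against 0.385% and 0.372% of all genes. Groups did not overlap in 1 channel gene with females above, against 2.93% of all genes, and in 2 with males above, against 1.81%.

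Kcnk1, a two-pore-domain channel of epithelia and brain, had the smallest p. It was at 17.7, 11.9, 14.1 and 18.3 CPM in males and at 7.07, 10.1, 10 and 8.25 CPM in females, and every male library lay above every female one. The means were 15.5 ± 3.04 and 8.85 ± 1.46 CPM (SD, n = 4 each), a log2 fold change, female over male, of -0.81 (SE 0.18). This did not pass in edgeR (adjusted p = 0.32), passed in DESeq2 (-0.82, adjusted p = 0.00996), and was -0.90 (SE 0.15, adjusted p = 0.0945) in edgeR with the muscle score in the fit. Across all settings tried the adjusted p ran from 0.00996 to 0.999, and the direction stayed.

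Cacna1e, the R-type calcium channel pore, had the reverse pattern. It was at 3.68, 2.62, 3.27 and 3.33 CPM in males and at 4.77, 7.21, 9.14 and 4.63 CPM in females, without overlap. The means were 3.23 ± 0.443 and 6.44 ± 2.16 CPM (SD, n = 4 each), and the log2 fold change of 0.99 (SE 0.25) did not pass in edgeR (adjusted p = 0.458). Kcnj12 was higher in every male library, 24.7 to 39.0 CPM, than in any female one, 17.9 to 24.3 CPM, a difference on the log2 scale of -0.49 with an SE of 0.17 and an adjusted p of 0.667. Kcnk2, a mechanosensitive two-pore-domain channel of sensory neurons and other cells, and Kcnab3, a potassium channel beta subunit, overlapped between the sexes, with log2 fold changes of 0.60 (adjusted p = 0.65) and -0.58 (adjusted p = 0.746).

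**Figure D5:**
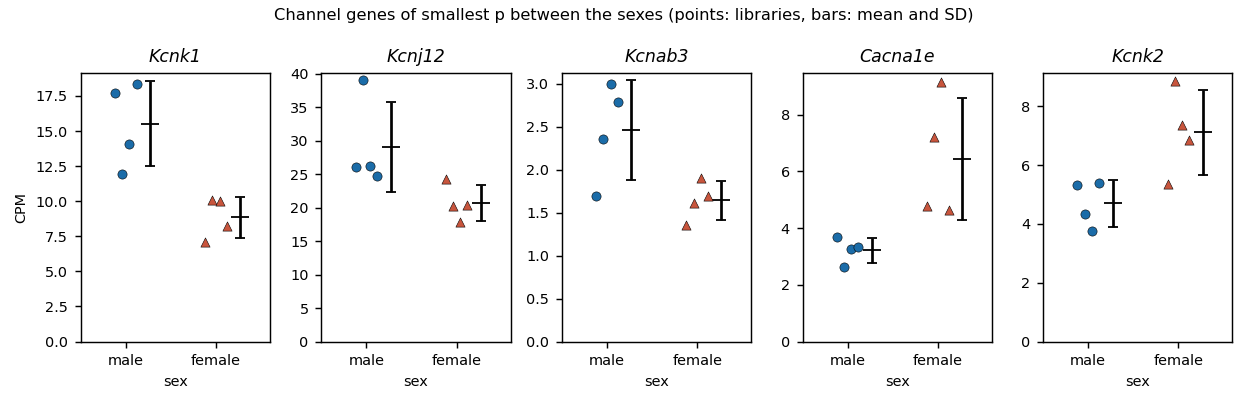
CPM (y, from 0) of the 5 channel genes of smallest p between the sexes, with each library as a point and the mean and SD (n = 4) as a bar beside it. Kcnk1 and Kcnj12 lie higher in all 4 male libraries and Cacna1e in all 4 female ones, while Kcnab3 and Kcnk2 overlap.

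The precision of the sex comparison differed between the lists. For the 10 channels of skeletal muscle the median SE of the log2 fold change was 1.24, against 0.40 over all channel genes and 0.15 over all genes tested. All 10 fold changes were below 0, with a median of -0.43. With the muscle score in the fit the median SE fell to 0.20, the median fold change was 0.05, 4 of the 10 were below 0 and 6 above, and none passed. For the 8 tested genes of sensory neurons the median SE was 0.32 without the score and 0.30 with it.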

How the data were processed

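Per the labels' protocols, poly(A)-selected RNA was sequenced with a stranded kit, and the submitters' processing notes name build mm9 and the tools TopHat2, HTSeq and bcl2fastq. Whether HTSeq counted by strand, its annotation and all versions were not given in the sources used here, so Kcnq1ot1 and Kcnq1 may share reads. The authors deposited whole-number read counts per gene for each library, without normalization; 18.0 to 21.2% of reads lay in no feature and were left out of library sizes.

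Genes were filtered with filterByExpr by sex, scaled by TMM and tested in R 4.3.3 with edgeR 4.0.16 (robust quasi-likelihood), adjusted by Benjamini-Hochberg over 14790 genes, threshold 0.05. The models were: sex; the muscle score plus sex; and the Schwann or keratinocyte score plus sex and muscle. Scores are means of log2 CPM with a prior count of 2. The SE is the coefficient over the square root of F. Lengths are merged exons of GENCODE M21. Alternatives included DESeq2 1.42.0 and limma-voom (limma 3.58.1). The sex and muscle fits were tested on simulated data. No libraries of a sex looked like repeats (chi-square per degree of freedom at least 13.2). Intervals and floors cover counting error only.

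Named were all members of the 6 tissue lists, the most abundant member of each class, up to 12 called risers on muscle whose CPM averaged 1 or more, and the genes of smallest p elsewhere (5 for sex, 3 for the Schwann and keratinocyte scores). The members and lists were chosen with earlier results of these data known. Some genes that the rule names are counted but not described here.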

Additional observations from a re-analysis of the deposited data

Results flagged for a closer look

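Of 98 groups of 4 libraries examined for a library far from the rest of its sex, 2 held one, and chance gives about 1 in 20. Kcnj12 in male replicate 2 was at 5.29 log2 CPM (730 counts), against 4.63 to 4.72 in the other males. Scn3a in female replicate 4 was at 0.37 log2 CPM (31 counts), against 0.96 to 1.03 in the other females.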

How the results depend on the processing

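No channel gene was called higher in females under any setting; DESeq2 called 1 lower. On muscle, the 18 rising calls were 16 to 20 under other scalings, filters, scores, limma-voom or no sex term. Under these, 450 to 791 of all genes rose. DESeq2 called 23 (27.7%), against 8.57% of all genes. Without female replicate 3 and male replicate 2 there were 13 of 83, and 341 of 14848 genes. Single libraries left out gave 12 to 23. The 12 of 83 came without female replicate 1, with 281 of 14908 genes. The 23 of 86 came without female replicate 2, with 1449 of 14946 genes. Falling calls were 2 with DESeq2 (Cacna1e and Kcnk5), 2.41% against 4.54% of all genes. They were 0 to 2 with single libraries left out. Leaving out female replicate 2 gave 2 of 86 (Cacna1e and Kcnk6), against 857 of 14946 genes. Same-numbered libraries of the sexes did not move together: their deviations from the mean of their sex correlated at -0.31 to -0.09. Those of the muscle-rich pair, male replicate 2 and female replicate 1, correlated at 0.77. With muscle differing this widely, the check cannot show whether the numbers stand for a shared batch or day. With the number as a block, 9 (10.8%) rose on muscle, against 1.7% of all genes, and none differed by sex. Cacna2d1, Cacnb1, Kcna5, Kcnc4, Kcnq5, Scn3b, Kcnn3 and Kcne1l were among those that lost their calls on muscle. Without the muscle score, 6 rose and 2 fell on the Schwann score, and 6 rose (7.23%) and 19 fell (22.9%) on the keratinocyte score, where 11.1% and 13% of all genes did. Single libraries left out gave 0 to 2 rising and 0 to 3 falling on the keratinocyte score, where 0 to 600 and 0 to 1104 of all genes did. The cause was not tested. Slopes near 0 changed sign: Kcnq1ot1 (-0.005 with upper quartile scaling, -0.003 with limma-voom, -0.010 with the block, -0.002 with no sex term, -0.045 to 0.059 with single libraries left out), Kcnab3 (0.010 with the block), Kcnd1 (-0.002 without both end libraries, -0.027 to 0.061 with single ones left out), Kcnj16 (-0.363 to 0.027) and Kcnk13 (-0.004 to 0.164). Counts of 10 or fewer in 36 untested genes limit what depth can show.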
